A study of Danio rerio with 3 samples.

Results

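Dense clusters of H3K27ac that also held H3K27me3 were examined in the posterior trunk of wild-type zebrafish embryos at 16 hours post fertilisation, profiled by CUT&RUN, in which a nuclease tethered to an antibody releases the DNA around a histone mark. H3K27ac was measured in 2 libraries (replicates 1 and 2, antibody ab4729) and H3K27me3 in 1 library (antibody 07–449), all of them from cells opened with 0.02% digitonin. Separate clutches are not stated for the H3K27ac replicates, so their spread may be technical, and values of H3K27me3 have no replicate. The tissue is a mixture of cell types, and every position below is on danRer11, for which no gene annotation was used here, so clusters are named by position.

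Lysine 27 of histone H3 can be acetylated, as is typical of active enhancers and promoters, or trimethylated by the Polycomb complex PRC2, as is typical of silenced developmental genes, but a given lysine cannot carry both marks. Stretches with many H3K27ac peaks close together can be clustered enhancers, which often lie near genes that set cell identity. The clusters below were chosen by number of intervals, were not ranked by signal and are not called super-enhancers. In the posterior trunk the somites, the spinal cord and the tail bud form side by side, and their regulatory genes, hox genes among them, are active in some cells and under Polycomb in others.

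An H3K27ac interval was a stretch called in both replicates, intervals were stitched across gaps of at most 12.5 kb, and a dense cluster had 5 or more intervals. A member was a dense cluster whose span, from its first to its last H3K27ac base, overlapped at least 1 H3K27me3 region by at least 1 bp. Of 16746 stitched clusters, 532 were dense, and 237 of these were members (44.5%, exact 95% interval 40.3 to 48.9%), while the other 295 held no H3K27me3. The count depends on requiring both H3K27ac replicates: with the regions of replicate 2 alone there were 1034 members of 2193 dense clusters, and with those of replicate 1 alone 610 of 1275. Of all stitched clusters, whatever their size, 13.5% held H3K27me3, but 10646 of them were single intervals with a median span of 0.386 kb. The members contained 1615 of the 27647 H3K27ac intervals and 523 of the 17121 H3K27me3 regions of the series. Presence of peaks in all 3 libraries chose the members, so the values below describe them and were not tested, and exact intervals cover counting error only. They treat regions, intervals and gaps of the same cluster as independent, which they are not, so they may be too narrow.

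The lists held 45534 regions in H3K27ac replicate 1, 60427 in replicate 2 and 17121 in H3K27me3. Read totals were not used here. As a measure of depth, MACS2's background over the genome, solved from the deposited values, was 0.806 tags in H3K27ac replicate 1, 1.10 in replicate 2 and 0.370 in H3K27me3, so the H3K27me3 library was the shallowest on this scale. Levels are given as the 10-kb tag density, which is MACS2's local background at a peak divided by this genome-wide background. The local background was read as 0.02 per tag in the 10-kb window around the peak. The density thus measures the 10 kb around a peak and not the peak's height above it. Its lowest possible value is 1, and densities of different antibodies are on different scales.

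Many members sat close to the limits of the rule. The median member had 6 H3K27ac intervals (range 5 to 22), spanned 30.2 kb (range 8.77 to 116.8 kb) and held 1 H3K27me3 region (range 1 to 17). There were 120 members with a single H3K27me3 region, and in 49 of them its density was under 2. The smallest amount of H3K27me3 in a span was 13 bp, at the edge of chr18:38116128-38136742. Just outside the rule, 8 of the 295 H3K27me3-free clusters had an H3K27me3 region within 1 kb beyond their ends, the nearest at 106 bp, although the median distance was 48.4 kb. Among the 535 clusters with 4 intervals, just under the limit of 5, 175 held H3K27me3, against 101 of the 249 with 5 intervals. Intervals can also be parts of 1 wide region, and 184 of the 237 members had 5 or more distinct regions in each replicate.

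Calls of H3K27me3 were mostly under a -log10 q of 5, with medians of 3.67 for regions on intervals and 3.38 for those in gaps, while H3K27ac intervals of members had medians of 4.88 in replicate 1 and 6.46 in replicate 2. With a -log10 q of at least 5 in all 3 lists, 29 dense clusters remained and none of them held H3K27me3. With that limit for H3K27me3 alone, 87 of the 532 dense clusters held it.

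The share of clusters with H3K27me3 rose with the number of intervals, but the number of H3K27me3 regions per Mb of span did not rise steadily with it. H3K27me3 was present in 40.6% of clusters with 5 intervals (exact 95% interval 34.4 to 46.9%) and in 13 of 17 with 13 or more intervals (76.5%, exact 95% interval 50.1 to 93.2%). The median spans of these classes were 22.7 and 76.4 kb. Per Mb of span there were 31.0 H3K27me3 regions in clusters with 5 intervals, 36.3 with 6, 29.2 with 7 or 8, 25.9 with 9 to 12 and 45.1 with 13 or more. Over all dense clusters the rate was 32.1, against 40.7 in clusters with 2 intervals and 36.2 with 3 or 4. The highest rate of the dense classes, in the class of 17 clusters, was not set against a test.

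Within the members, H3K27me3 lay both on and between the H3K27ac intervals. Of the 523 H3K27me3 regions, 230 overlapped an interval by at least 1 bp (44.0%, exact 95% interval 39.7 to 48.4%), and the other 293 lay in the gaps (56.0%). Over the whole series, 12.0% of H3K27me3 regions overlapped an H3K27ac interval, but members were chosen to have both marks in 1 span, so the 2 shares cannot be read against each other. Of the 1615 member intervals, 233 overlapped H3K27me3 (14.4%, exact 95% interval 12.7 to 16.2%), against a background of 7.50% over all intervals. This comparison is also set by the choice: when the clusters free of H3K27me3 were put back, 233 of 3442 intervals in dense clusters overlapped it, or 6.77% (exact 95% interval 5.95 to 7.66%), near the background. Isolated intervals had 8.17% (exact 95% interval 7.66 to 8.71%).

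In bp, H3K27me3 covered more of the intervals than of the gaps. The spans added up to 8.05 Mb, of which H3K27ac took 7.53% and H3K27me3 2.76%. H3K27me3 covered 9.90% of the interval bp and 2.18% of the gap bp, a ratio of 4.53. By cluster, coverage was higher on the intervals in 162 members and higher in the gaps in 75. Since gaps were far longer in total (7.44 Mb) than intervals (606 kb), most H3K27me3 bp still lay outside H3K27ac: 26.96% of the H3K27me3 bp in the spans was shared. In all dense clusters together, H3K27me3 covered 4.56% of interval bp and 1.09% of gap bp, and in clusters of 3 or 4 intervals 4.53 and 1.25%.

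The members fell into 3 arrangements of similar frequency. In 87 members every H3K27me3 region overlapped an H3K27ac interval by at least 1 bp (36.7%), though part of a region could reach into a gap. In 71 every region lay wholly in gaps, and 79 had regions of both kinds (33.3%). The 120 members with 1 region, which lay on an interval in 70, could not have both kinds. All 79 mixed members were thus among the 117 with 2 or more regions, where the mixed arrangement was the commonest. The commonest single arrangement was 5 H3K27ac intervals of which only the last on the chromosome overlapped H3K27me3. Direction here is that of the coordinates only. Members with 5 intervals and 1 region have the fewest possible orders, so no preference for an end can be read from this.

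**Figure D1:**
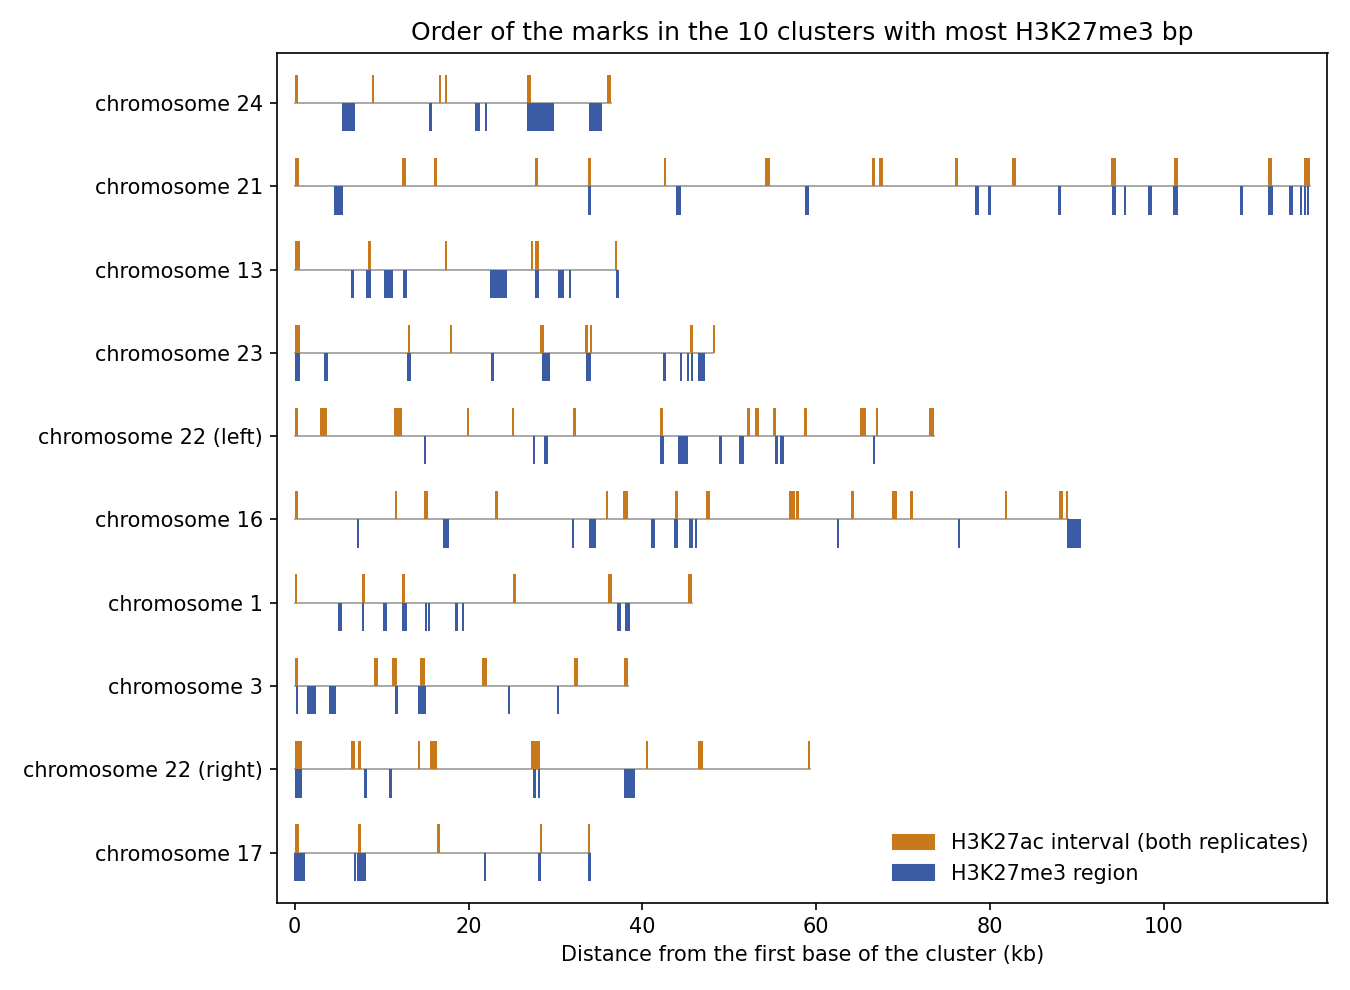
Maps of the 10 members with most H3K27me3 bp, drawn to scale, with distance from the first base of the cluster in kb on the x axis, H3K27ac intervals called in both replicates above each line (orange) and H3K27me3 regions below it (blue), and features under 250 bp widened to 0.25 kb. Both marks alternate along most spans, and on chromosome 21 H3K27me3 regions crowd towards the right end.

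Where a member held 2 or more H3K27me3 regions, these mostly did not form 1 block. A run was defined as H3K27me3-bearing items, in gaps or on intervals, with no H3K27me3-free H3K27ac interval between them. Of the 117 members with 2 or more regions, 35 had 1 run (29.9%, exact 95% interval 21.8 to 39.1%), 59 had 2 runs and 23 had 3 to 7 runs. Of the 60 members with exactly 2 regions, 27 had them in 1 run and 33 in separate runs. All 25 members with 5 or more regions had at least 2 runs, and 17 of them had 3 or more. More regions leave more room for separate runs, and no expected number of runs was computed.

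H3K27me3 in gaps was spread along the spans. Each span was folded so that its ends fell together and was divided into 3 equal steps from the end to the centre. H3K27me3 regions in gaps divided almost evenly, with 34.5% in the outer, 32.8% in the middle and 32.8% in the inner step (n = 293). With regions on intervals included, the shares were 41.7, 29.3 and 29.1% (n = 523), so more lay in the outer step. H3K27ac intervals themselves lay more in the outer step (46.7%), which always contains the 2 end intervals. End intervals overlapped H3K27me3 in 79 of 474 cases (16.7%, exact 95% interval 13.4 to 20.3%) and inner intervals in 154 of 1141 (13.5%, exact 95% interval 11.6 to 15.6%). Intervals of the same cluster are not independent, and the difference was not tested. In 74 members at least 1 end interval overlapped H3K27me3, and in 5 both did.

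The gaps that held H3K27me3 were the longer ones. Of the 1378 gaps between neighbouring intervals, 221 held H3K27me3, with a median length of 7856 bp against 4919 bp for the rest, and 58 held 2 to 4 regions. Only 0.398% of gaps of at most 1 kb held H3K27me3 (1 of 251), against 34.4% of gaps of 10 to 12.5 kb (65 of 189, exact 95% interval 27.6 to 41.6%). Per Mb of gap the numbers were close to level above 1 kb, at 37.2 regions in gaps of 1 to 2.5 kb, 35.6 in gaps of 2.5 to 5 kb, 38.3 in gaps of 5 to 7.5 kb, 39.9 in gaps of 7.5 to 10 kb and 42.4 in the longest. In 70 of the 150 members with H3K27me3 in a gap, the longest gap held some (46.7%). A gap region lay a median of 1841 bp from the nearest H3K27ac interval, and 85 of 293 lay within 1 kb.

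**Figure D2:**
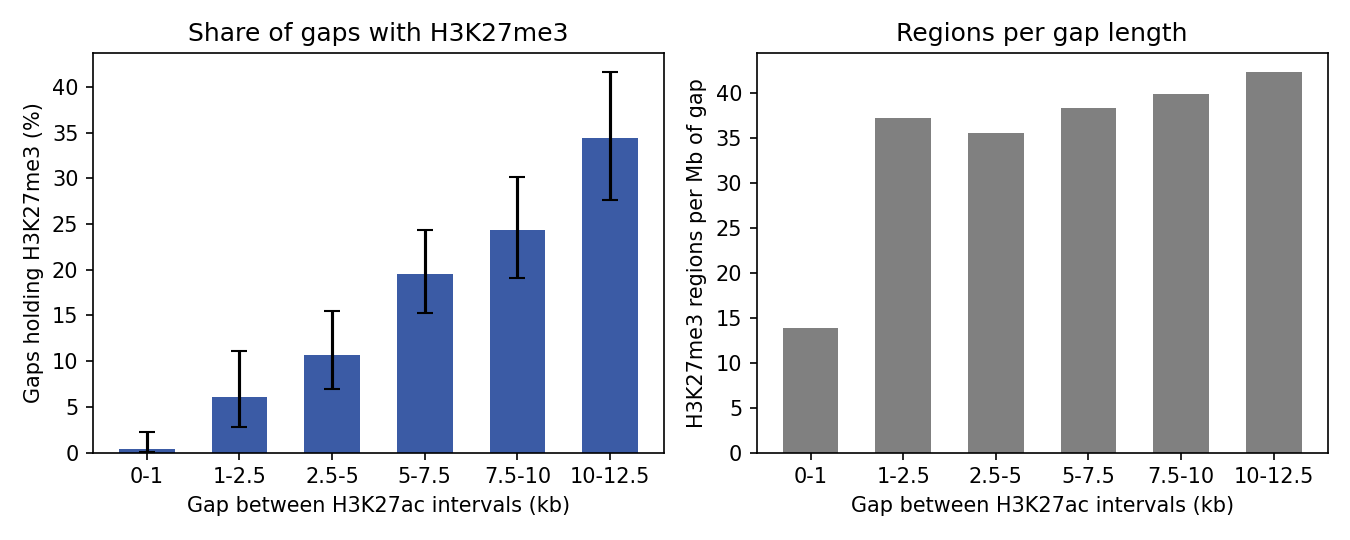
Left, the share of gaps that hold an H3K27me3 region (%) by gap length in kb, with exact 95% intervals; right, H3K27me3 regions per Mb of gap in the same classes. The share climbs from 0.398% to 34.4% with gap length, while regions per Mb stay between 35.6 and 42.4 in gaps over 1 kb.

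Whether a gap region was free of H3K27ac depended in part on the replicate. Of the 293 gap regions, 212 touched no H3K27ac region of either replicate (72.4%, exact 95% interval 66.9 to 77.4%). There were 31 that touched a region of replicate 1 and none of replicate 2, 49 with the reverse, and 1 that touched separate regions of both. The region touched could be called in 1 replicate only or be the unshared part of one called in both, and these were not counted apart. Counted against single replicates, 262 of the 523 H3K27me3 regions touched replicate 1 (50.1%) and 280 touched replicate 2 (53.5%), the deeper library.

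The density of H3K27me3 differed between the regions on H3K27ac and those in gaps. The median density was 4.38 on intervals and 10.97 in gaps, while widths (333 and 326 bp) and -log10 q (3.67 and 3.38) were close. Median fold went the other way, at 4.05 on intervals and 3.35 in gaps. Fold is the ratio of tags at the summit to the local background after the same constant is added to both. The constant lowers the fold most where the background is low. The local background divides the fold and is itself the basis of the density, so these measures are not separate. Ordered by density and divided into 3 tertiles, the regions overlapped H3K27ac in 61.8% of the sparsest (110 of 178, exact 95% interval 54.2 to 69.0%), 42.4% of the middle (72 of 170, exact 95% interval 34.8 to 50.2%) and 27.4% of the densest tertile (48 of 175, exact 95% interval 21.0 to 34.7%). Both H3K27ac libraries showed this order: 66.9, 46.5 and 36.6% touched replicate 1, and 69.1, 52.9 and 38.3% touched replicate 2. A fall with density over the whole H3K27me3 list was known when the tertiles were chosen, so they are not separate support for it.

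Coverage by bp showed the same order. The sparsest tertile, with densities of 1 to 4.05, covered 4.64% of the interval bp and 0.322% of the gap bp, a ratio of 14.4. The densest tertile, with densities of 13.4 to 222, covered 2.16 and 1.15%, a ratio of 1.87. Even the densest H3K27me3 thus covered intervals more than gaps by bp. The tertiles differed in other ways too. Median width was 244 bp in the sparsest and 429 bp in the densest, and median -log10 q was 3.08 and 5.14. Median fold was 4.33 and 2.88, and the regions came from 139 and 57 members. The part of width and call strength in the difference was not tested. With H3K27me3 at a -log10 q of at least 5, tertiles were redrawn among the remaining regions. The shares on H3K27ac were then 63.3% in the sparsest and 32.7% in the densest tertile (n = 49 each).

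**Figure D3:**
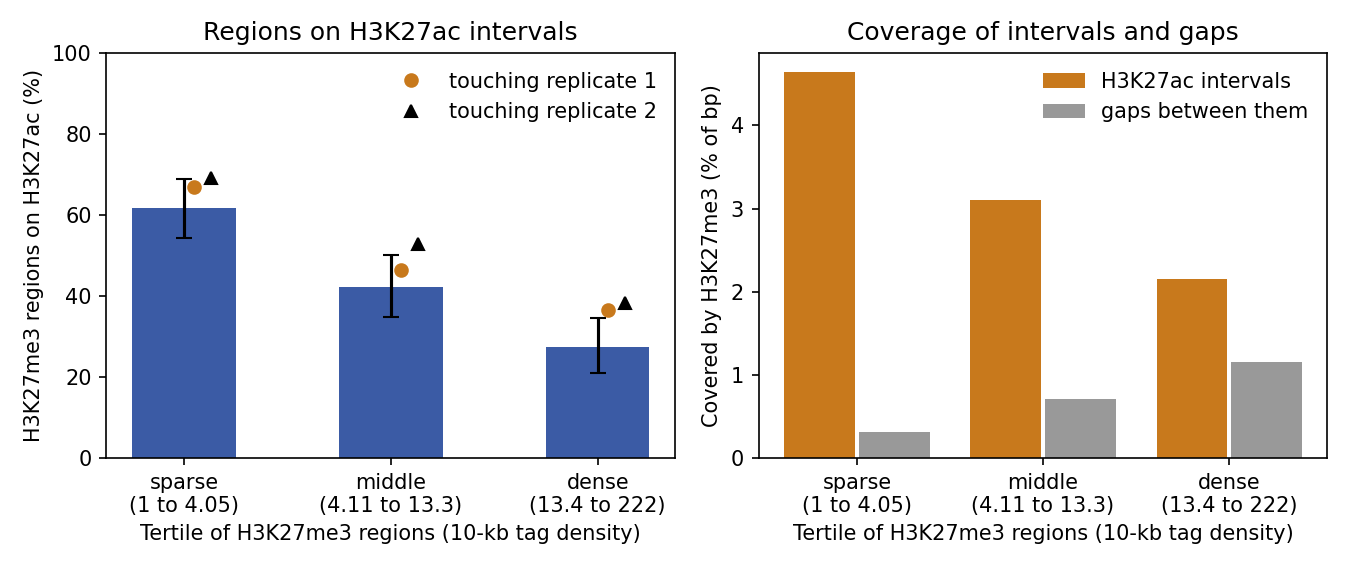
Left, the share of member H3K27me3 regions on an H3K27ac interval (%, bars with exact 95% intervals) by tertile of H3K27me3 density, with the share touching replicate 1 (circles) and replicate 2 (triangles); right, the percent of interval and gap bp that each tertile covers. The share on H3K27ac falls from 61.8 to 27.4%, and coverage of the gaps climbs from 0.322 to 1.15%.

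Inside single clusters this difference was small. Among the 79 members with H3K27me3 both on intervals and in gaps, the median density was higher in the gaps in 47 and on the intervals in 32, and the median log2 ratio of gaps to intervals was 0.13. The medians of 4.38 and 10.97 over all regions were further apart than that. Regions less than 10 kb apart share part of their window, so a small ratio inside a cluster follows in part from the measure. Members whose densest region was under 2 had a median of 1 region, and 73.1% of their regions were on H3K27ac (49 of 67). Members whose densest region was at 30 or more had a median of 4 regions, and 28.8% of these were on H3K27ac (45 of 156).

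H3K27ac had similar densities next to H3K27me3 and away from it. Intervals overlapping H3K27me3 had a median H3K27ac density of 6.90 in replicate 1 and 7.19 in replicate 2 (n = 233), and intervals next to a gap with H3K27me3 had 7.16 and 7.04 (n = 348). The remaining 1034 intervals had 7.095 and 7.33. The means of these medians were 7.05 ± 0.211, 7.099 ± 0.0828 and 7.21 ± 0.167 (SD, n = 2 each). These SDs do not measure spread among intervals, so the differences cannot be judged by them. Peak-level values were higher on intervals overlapping H3K27me3. Their median -log10 q was 6.01 in replicate 1 and 7.05 in replicate 2, against 4.81 and 6.50 for the remaining intervals. Their median fold was 3.72 and 3.55, against 3.37 and 3.33. Intervals next to a gap with H3K27me3 had a median -log10 q of 4.73 and 5.99 and a median fold of 3.46 and 3.30. Intervals overlapping H3K27me3 were also wider, with a median of 414 bp against 330 bp for the remaining ones. A wider interval has more bp in which to meet another region.

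Inside clusters the differences went both ways. In the 228 members with intervals of both sorts, the median H3K27ac density of intervals overlapping or next to H3K27me3 was divided by that of the other intervals of the cluster. The median log2 ratio was 0.07 in replicate 1 and 0.04 in replicate 2 (0.06 ± 0.02, SD, n = 2). The ratio was above 0 in both replicates in 117 members and below 0 in both in 86, and in 25 the replicates did not share a sign. Single clusters departed far from 0 in both directions, with 9 in 10 of the replicate means between -0.92 and 0.90, and the replicates gave nearly the same value per cluster (Pearson r 0.94 across 228 clusters, which are not independent samples). The size and sign of the median turned with the definition of a cluster: it was -0.03 with gaps of at most 25000 bp and -0.03 with 10 or more intervals, but 0.13 with gaps of at most 5000 bp. With H3K27me3 at a -log10 q of at least 5 it was 0.019. It was 0.12 without H3K27ac replicate 1 and 0.10 without replicate 2. The 10-kb window of the density is as wide as many gaps, so differences over shorter distances are smoothed.

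**Figure D4:**
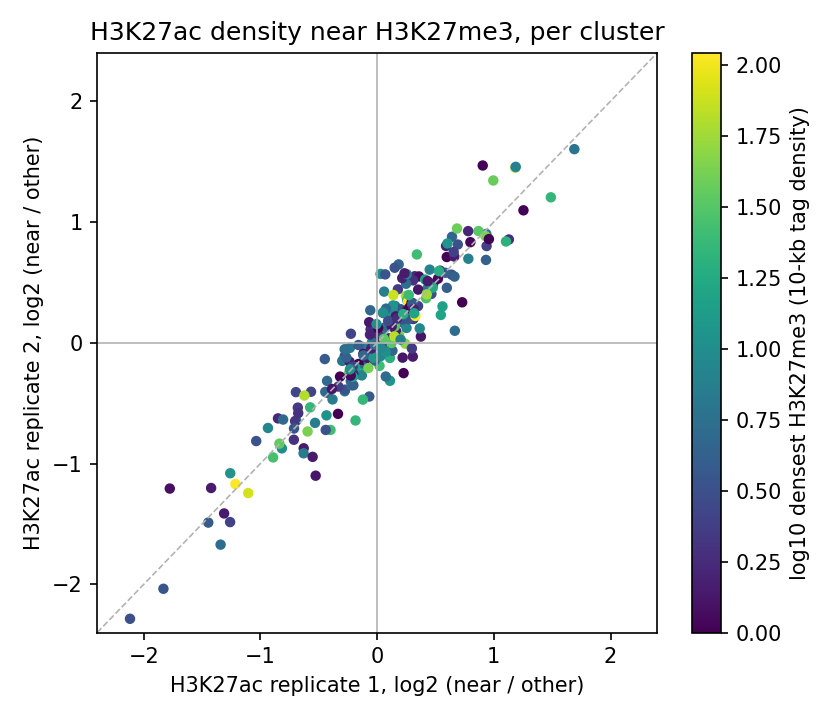
Each point is 1 of 228 members, with the log2 ratio of H3K27ac density in intervals overlapping or next to H3K27me3 to that in its other intervals, for replicate 1 (x axis) and replicate 2 (y axis), coloured by the log10 of its densest H3K27me3. Points follow the dashed line of equal values and spread to both sides of 0, with medians of 0.07 and 0.04.

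Members with dense H3K27me3 had H3K27ac about as dense as members with sparse H3K27me3. The densest H3K27ac interval of a member had a median density of 9.70 in replicate 1 and 9.33 in replicate 2 where the densest H3K27me3 was under 2 (n = 58 members), and 9.80 and 10.50 where it was 30 or more (n = 30). Across the 237 members, the densest H3K27ac and the densest H3K27me3 had a Spearman rho of -0.04, as a description across clusters that share libraries. The number of H3K27me3 regions and the densest of them had a rho of 0.64, and the 10-kb window counts tags of neighbouring regions. The midpoint of the densest H3K27ac interval and the summit of the densest H3K27me3 region lay a median of 7.34 kb apart, or 21.6% of the span. These are the densest points of the marks below. With the density of replicate 1 alone the distance was 6.70 kb. In 40 members these points lay on the same interval or within 1 kb of each other, and in 58 they were more than 50% of the span apart.

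Where the marks overlapped, they shared much of the interval. The 233 overlaps had a median of 224 bp and took a median of 63.3% of the interval. The H3K27me3 summit fell inside the H3K27ac interval in 173 (74.2%, exact 95% interval 68.1 to 79.7%). In 44 the H3K27ac interval lay wholly inside the H3K27me3 region, and in 77 the H3K27me3 region lay wholly inside the interval. The median distance of the H3K27me3 summit was 121 bp to the replicate 1 summit and 121 bp to the replicate 2 summit, while the replicates' own summits were 73 bp apart. These pairs were chosen for their overlap, so short distances follow in part from the choice.

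H3K27me3 also lay beyond the ends of some members. The 12.5 kb outside each end was not used to choose members and holds no H3K27ac interval by construction. H3K27me3 regions lay there in 105 of 237 members (44.3%, exact 95% interval 37.9 to 50.9%) and in 38 of 295 dense clusters free of H3K27me3 (12.9%, exact 95% interval 9.28 to 17.2%). Among clusters with exactly 5 intervals the shares were 44 of 101 members (43.6%, exact 95% interval 33.7 to 53.8%) and 17 of 148 free clusters (11.5%, exact 95% interval 6.84 to 17.8%). A flank density of 10 or more was found in 54 members (22.8%) and in 8 free clusters (2.71%). Both flanks held H3K27me3 in 25 members and in 4 free clusters. Members were chosen for H3K27me3 in the span beside these flanks and free clusters for lacking it. Where H3K27me3 regions lie close together, the difference thus follows in part from the choice. No share over the whole series was set beside these. Clusters are not replicates of a condition, and no test was run on these shares.

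Flank H3K27me3 was also counted by the density inside, but the measures are not separate: the 10-kb window of a region near a cluster end takes in tags of the flank. H3K27me3 was present in a flank in 8 of 58 members whose densest region was under 2 (13.8%), a share near that of the free clusters. It was present in 22 of 64 members with a densest region of 2 to 5 (34.4%), in 23 of 44 with 5 to 10 (52.3%), in 31 of 41 with 10 to 30 (75.6%) and in 21 of 30 with 30 or more (70.0%). In 48 members the flanks held denser H3K27me3 than the span itself, and in 36 of these the flank density was 10 or more.

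**Figure D5:**
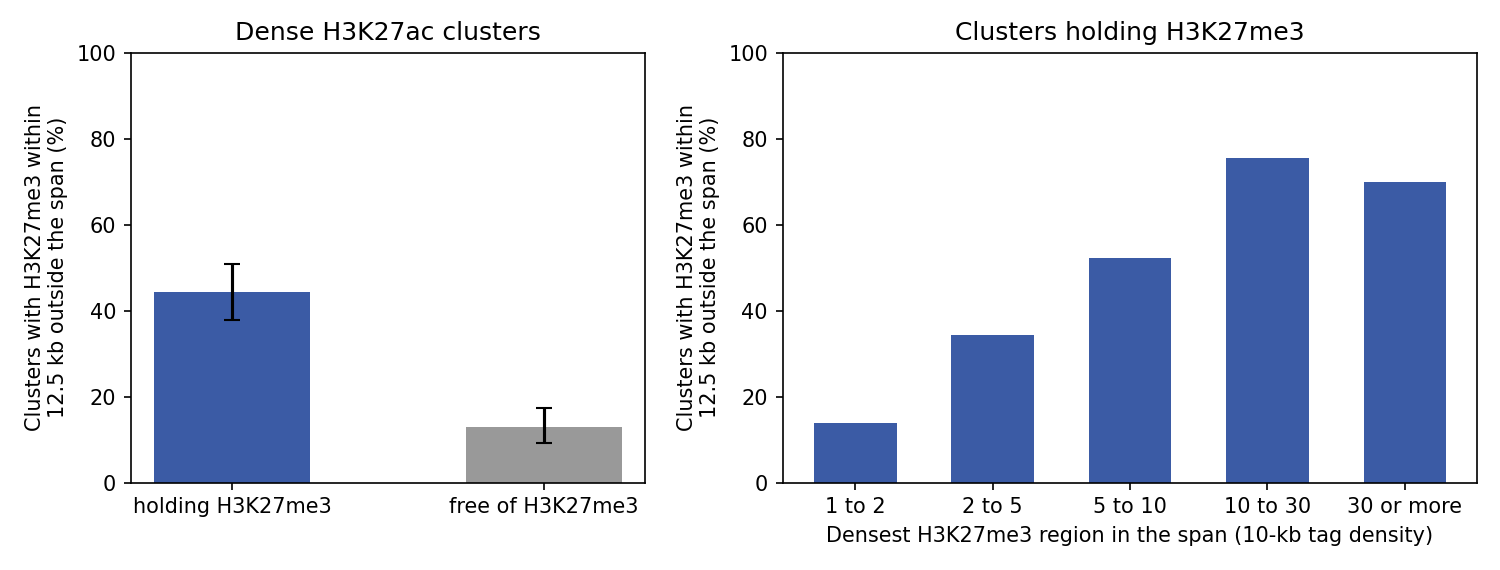
Left, the share of dense H3K27ac clusters with an H3K27me3 region within 12.5 kb outside the span (%, bars with exact 95% intervals) for the 237 holding and the 295 free of H3K27me3 inside; right, the same share of the 237 by the density of their densest H3K27me3 region. The shares are 44.3 and 12.9% on the left, and on the right they climb from 13.8% to 75.6% and are 70.0% in the last class.

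In bp of H3K27ac the members and the free clusters were close, while the median density was higher in members in both replicates. Members had a median of 6 intervals in 30.2 kb and free clusters 5 in 26.3 kb, with a median of 2196 and 2209 bp of H3K27ac. The median density of their intervals was 7.07 in replicate 1 and 7.25 in replicate 2 in members, against 6.70 and 6.70 in free clusters. The means of these medians were 7.16 ± 0.126 in members and 6.70 ± 0.00409 in free clusters (SD, n = 2 each). These SDs do not measure spread among clusters, so the difference cannot be judged by them, and members were also longer. The median -log10 q went the other way, with 4.88 and 6.46 in members against 5.10 and 7.55 in free clusters.

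The member with most H3K27me3 bp was chr24:17233573-17269945, with 7285 bp in 7 regions. It also had the densest H3K27me3 of all members, at 222 from 4109 tags. Its 6 H3K27ac intervals had densities of 3.90 to 6.67 in replicate 1 and 3.87 to 7.36 in replicate 2. H3K27me3 density climbed from 25.8 in the first region through 40.5, 104, 116 and 218 to 222 and fell to 125 in the last. The densest H3K27ac interval, at 17260261 to 17260711, lay at the left edge of the widest H3K27me3 region, of 2741 bp, and was the only interval that overlapped H3K27me3. Its densities of 6.67 and 7.36 were the highest of the cluster in both replicates, so in this cluster both marks reached their highest values within 2.70 kb of each other.

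The longest member, chr21:37111214-37228020, had the most H3K27me3 regions (17) and the most shared bp (2016). Its first 5 intervals, at the left end, had 2 H3K27me3 regions with densities of 6.92 and 6.81. In the right part, from 37187202 on, 6 intervals stood among 13 H3K27me3 regions with densities of 15.6 to 47.7. The densest interval, at 37193720 to 37194185 with 12.4 and 12.0 in replicates 1 and 2, lay in this right part, free of H3K27me3 but between regions of 32.0 and 25.3. The last 4 intervals all overlapped H3K27me3 and had H3K27ac densities of 4.29 to 6.85 and 4.43 to 7.50.

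On chromosome 13, at 1295354 to 1332477, 10 H3K27me3 regions stood among 6 intervals. The second interval, from 1303784 to 1304089, lay inside the densest H3K27me3 region (166, from 3077 tags) and was also the densest H3K27ac interval in both replicates, at 6.77 and 5.47. A further 3 regions of 126 to 156 followed in the next gap, and the right part had densities of 15.2 to 55.7. The flanks held 2 regions on the left, up to 51.5, and 2 on the right, up to 12.2.

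In the member chr23:23353339-23401471, with 9 intervals and 11 H3K27me3 regions, the densest points of both marks fell 0.010 kb apart. The interval from 23398867 to 23399104 had H3K27ac densities of 14.1 and 13.7 and an H3K27me3 density of 76.4, and of the 9 intervals 6 overlapped H3K27me3. H3K27me3 was lower, at 13.3 to 24.3, over the first 7 intervals. There H3K27ac was 9.15 to 13.4 in replicate 1 and 7.63 to 11.0 in replicate 2.

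A pair of neighbouring members on chromosome 22 differed in H3K27me3. The left one, chr22:37297777-37371351, had 14 intervals and 10 H3K27me3 regions, which reached 75.4 to the right of its centre. H3K27ac was also high there: the interval from 37349822 to 37350104, to the right of a region with a density of 59.8, was the densest of the cluster, with 11.7 and 14.4. On the left side, where H3K27me3 was 1.51 to 2.38, 4 intervals had only 1.71 to 2.58 in replicate 1 and 1.34 to 2.67 in replicate 2. The right one, chr22:37396642-37455950, held 6 regions with densities of 2.05 to 4.48. Of its 9 intervals 2 overlapped H3K27me3, over 1331 bp, and its H3K27ac reached 5.26 and 5.85.

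The most broken arrangement was chr16:46206076-46295048, with 16 intervals, 12 H3K27me3 regions and 7 runs. H3K27me3 density was 2.16 to 4.05 in the first 3 regions, 22.6 to 33.6 in the next 6, 13.7 and 5.57 after that, and 39.3 in the last, which ran past the end of the cluster. H3K27ac was densest at 46270099 to 46270463, with 12.9 and 12.4, beyond the middle block of H3K27me3.

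A further 3 of the 10 members with most H3K27me3 bp showed other arrangements. At chr1:51491830-51537549, 10 regions of 9.08 to 32.1 stood among 6 intervals, and the densest interval, with 9.18 and 7.92, lay inside an H3K27me3 region of 620 bp. At chr3:60736464-60774755, H3K27me3 reached 31.6 in the left part and was 4.05 in the last region at the right, and H3K27ac was lowest at the left end, where the first interval had 1.51 and 1.76. At chr17:17948105-17982113, 4 of 5 intervals overlapped H3K27me3 of up to 17.8, over 1189 bp. The third interval, in the centre and free of H3K27me3, had 7.49 and 8.48, the highest value of the cluster in replicate 2.

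Members with the densest H3K27ac were of different kinds. The member chr9:1950161-1999837 had 8 intervals and reached 25.5 in replicate 1 and 28.4 in replicate 2 (26.9 ± 2.08, SD, n = 2). Its marks were apart: the first 5 intervals, at 17.2 to 25.5 and 17.0 to 28.4, came before any H3K27me3. A further 4 H3K27me3 regions of 51.8 to 63.5 then lay in 2 gaps, around a single interval of 16.0 and 18.7, and the last 2 intervals fell to 8.68 and 4.54 in replicate 1 and to 11.3 and 5.01 in replicate 2. None of the 8 overlapped H3K27me3, and the right flank held 7 regions of up to 265.

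The member chr16:20890801-20913960 had a like arrangement in the opposite direction along the chromosome. Its first interval, with 5.73 and 4.60, was followed by a single gap with 3 H3K27me3 regions of 63.2, 77.5 and 81.4, and then by 4 intervals that climbed from 16.4 through 21.1 and 23.8 to 24.3 in replicate 1 and from 19.1 through 23.9 and 28.0 to 28.1 in replicate 2. No interval overlapped H3K27me3, and the densest points of the marks were 17.9 kb apart, or 77.5% of the span.

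The other members with very dense H3K27ac held only sparse H3K27me3. At chr5:32504915-32607858, with 22 intervals and a maximum of 25.9 and 26.5, the single H3K27me3 region had a density of 1.08 (20 tags) and lay inside the tenth interval, which had 15.03 and 16.2. At chr25:18287318-18346070 the maximum was 24.6 and 25.5, and 2 intervals overlapped H3K27me3 of 1.46 and 1.51. At chr7:54761657-54813574 the maximum was 23.8 and 26.8, and the interval that overlapped H3K27me3 of 1.19 was the lowest of the cluster in replicate 1 (3.67), while the first interval was lowest in replicate 2 (4.25). These H3K27me3 regions rested on 20 to 28 tags in 10 kb.

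Long runs of H3K27ac without H3K27me3 were found in members with weak H3K27me3. The member on chromosome 5 had 12 intervals in a row after its single H3K27me3 region. At chr23:38855005-38942648, 12 of 18 intervals followed a single H3K27me3 region of 1.30 (24 tags), and the densest interval, with 21.4 and 20.9, lay 55.6 kb to its right. At chr1:5268594-5349880, with 18 intervals, an H3K27me3 region of 1.68 lay on the first interval and another of 2.32 in a gap, with 12 free intervals between them. At chr9:13354129-13451521, also with 18 intervals, 5 H3K27me3 regions of 1.62 to 5.51 fell into 5 runs, and H3K27ac reached 13.8 and 13.8.

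The densest H3K27me3 was found in 3 further members. At chr6:19925217-19954267 an H3K27me3 region of 2157 bp with a density of 110 covered the first 2 intervals, which were the densest of the cluster in both replicates, at 6.90 and 7.47 in replicate 1 and 6.65 and 7.25 in replicate 2. Its left flank held 4 more H3K27me3 regions of up to 122. At chr7:68438385-68462810, with 5 intervals and 7 H3K27me3 regions of 22.6 to 106, the densest intervals (9.82 and 10.3 in replicate 1, both 10.03 in replicate 2) lay at the right end, next to a flank with H3K27me3 of up to 204. At chr14:32708293-32744668 a pair of regions of 98.8 and 106 lay in the last gap, and the last interval, beyond them, was the densest, with 11.8 and 12.9. No interval overlapped H3K27me3 there.

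The last member in this set was chr3:23596101-23630865, with 1111 shared bp. Of its 6 intervals 3 overlapped H3K27me3, at densities of 4.16 to 7.78 in the left and middle part and 32.1 at the right end, and a region of 32.5 lay in the last gap. The densest interval, with 10.2 and 10.4, overlapped H3K27me3. The flanks of this member held no H3K27me3 within 12.5 kb.

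The 5 members with the densest H3K27me3 had their densest H3K27ac interval within 2.70 kb of the densest H3K27me3, at distances of 0.0110, 0.226, 1.15, 1.86 and 2.70 kb. The 5 with the densest H3K27ac had it 9.97 to 42.4 kb away. Both sets were chosen by these densities, and over all members the distance did not shorten steadily with H3K27me3 density. Its median was 8.03 kb where the densest H3K27me3 was under 2, 8.54 kb at 2 to 5, 4.29 kb at 5 to 10, 5.96 kb at 10 to 30 and 7.75 kb at 30 or more (n = 30).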

How the data were processed

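Per the submitters' processing notes, the genome build was danRer11 and the peak caller MACS2 2.2.7.1, with Bowtie2 2.4.5 and cutadapt 4.1, with Picard 3.0.0, SAMtools 1.16.1 and bedtools 2.30.0 also named, without settings. One deposited peak list per library gives the authors' fold, a p-value and q-value as -log10, a score (the deposited -log10 q times 10) and the summit's distance from the start. Fold was read as the ratio of tags at the summit to the local background, with 1 added to both. The lowest -log10 q was 1.30.

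Touching lines were merged into regions that keep their highest values, and the mitochondrial genome was left out. Pileup and background were solved from fold and p-value by MACS2's formulas, within 0.001 on the -log10 scale in every line. Backgrounds above the genome-wide value were read as 0.02 per tag in 10 kb. This reading was not stated by the authors. On simulated lines this recovered 99.6% of 2000 for H3K27me3 and 100% for each H3K27ac list, and the order of the marks was recovered in all 222 simulated clusters. An interval takes the density of the regions it comes from.

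Shares have exact Clopper-Pearson 95% intervals. No test was run, since 1 H3K27me3 library would be compared with 2 of H3K27ac. The members, rules and alternatives were chosen with earlier results of these data known. The positions named are the 10 members with most H3K27me3 bp, the 5 each with most intervals, densest H3K27ac, densest H3K27me3 and most shared bp, and the 3 with the longest H3K27me3-free run. Gene lists could not be used without a danRer11 annotation. Alternatives were other gaps, 10 intervals, a -log10 q of at least 5, single H3K27ac replicates, removal of chromosome 4 and unplaced scaffolds, and an overlap of 50%. The tools were scipy 1.17.1, pandas 2.3.3 and numpy 2.4.6 in Python 3.11.15, with figures in matplotlib 3.10.9.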

Additional observations from a re-analysis of the deposited data

How the results depend on the processing

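Of 94 values recomputed under alternatives, 50 moved little, 44 moved and the near-to-other log2 ratio, which was not called, turned below 0 under 2 of them; the causes were not tested. With gaps of at most 5000 bp there were 12 members (32.4% of dense clusters), with 50% of H3K27me3 regions in gaps, 40% of multi-region members in 1 run, 3.16 kb between densest points, a near-to-other log2 ratio of 0.13 and 20% of free clusters with a flank region. With gaps of at most 25000 bp there were 710 members (56.6%), 67.8% of H3K27me3 regions in gaps, 11.7% of intervals overlapping, 18.2 kb between densest points, a log2 ratio of -0.033, 35.6% with a flank region, and 46.6 and 19.5% of the sparsest and densest tertiles on H3K27ac. With 10 or more intervals these were 28 members (59.6%), 61.5%, 9.94%, 16.3 kb, -0.031, 35.7%, 53.1% and 40.6%, and 6.25% were in 1 run (1 of 16). With all lists at a -log10 q of at least 5 there were 0 members of 29 dense clusters (0%), and no other value could be computed. With that limit for H3K27me3 alone there were 87 members (16.4%), 11.6% of intervals overlapping, a log2 ratio of 0.019, and flank regions in 25.3% of members and 8.31% of free clusters. With 5 distinct regions in each replicate the distance was 8.33 kb. Without 1 H3K27ac replicate, members numbered 610 to 1034, the distance was 7.67 to 8.24 kb, the log2 ratio 0.10 to 0.12, members with a flank region 33.8 to 35.9% and the densest tertile on H3K27ac 35.0 to 37.6%. The flank, tertile and distinct-region values were added after seeing the data. Tertiles were redrawn under each alternative. No paired analysis was possible because H3K27me3 has 1 library and no groups were tested. The part of depth in the weak H3K27me3 calls was not tested. Regions just above the lowest density of 1 rest on about 20 tags in 10 kb, and regions at a density of 1 have no tag count.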
